A study of Mus musculus with 4 samples.

Results

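NRF2, glutathione and thioredoxin antioxidant genes were followed in mouse livers that lacked Cpt1a and in the authors' comparisons of Cpt1a and Cpt2 knockouts. The 34 genes were chosen by symbol from the 54532 genes of the count table. They are NRF2 (Nfe2l2) and KEAP1 with their target genes, and the peroxide and thiol redox enzymes, without glutathione S-transferases. By role they were 3 regulators, 11 NRF2 target enzymes, 9 glutathione genes, 4 thioredoxin genes and 7 peroxiredoxins and superoxide dismutases.

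RNA was sequenced from 4 livers with a liver-specific Cpt1a knockout, taken after a 24 h fast. CPT1A and CPT2 are the outer and inner membrane enzymes that carry long-chain fatty acids into mitochondria for oxidation, which the fasted liver relies on. The authors also deposited 3 tables that compare the Cpt1a knockout with a reference group, a Cpt2 group with that reference group, and both knockouts with each other. Per the design text, all mice were fasted in the same way, the knockouts were set beside littermate controls, and the Cpt2 samples came from an earlier series. Headers of the tables name both knockouts with AlbCre, that is, a Cre recombinase driven by the albumin promoter of hepatocytes. No label says which other liver cells keep the gene. The reference group carries a short name made of Rab30 and Cpt2, whose meaning is not explained by any label. Strain, sex and age are not given either, nor the number of livers behind the Cpt2 and reference groups, nor whether all groups were sequenced together. Batch and genotype therefore cannot be told apart in comparisons with the Cpt1a knockout. No label says that each of the 4 livers is from another mouse, so their spread may be technical.

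NRF2 is a transcription factor that KEAP1 marks for degradation until electrophiles or oxidants modify KEAP1, or the autophagy receptor SQSTM1 binds it. NRF2 then pairs with a small MAF protein at antioxidant response elements of genes for quinone reduction, glutathione synthesis and thioredoxin reduction. Glutathione and thioredoxin are parallel thiol systems, both fed by NADPH, that reduce peroxides through glutathione peroxidases and peroxiredoxins. The liver is the main organ of glutathione synthesis and export.

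The 4 livers had 13138884 to 14116441 counts and 19732 to 20258 genes with a count. The label of liver was met by 8 hepatocyte markers that summed to 19484 to 28043 FPKM. Cpt1a itself was 6.91-fold lower in the knockout than in the reference group (log2 −2.79, adjusted p = 5.27e-51) in the authors' deposited table. In the Cpt2 group, the Cpt2 transcript differed from the reference group by a log2 fold change of −0.07 (adjusted p = 0.837) in the authors' deposited table, so its level does not check that group's label. In bulk liver, fewer cells of a type and less RNA per cell cannot be told apart.

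Most NRF2 target and glutathione synthesis transcripts were higher in the Cpt2 group than in the reference group, by 17.4-fold for Cbr3 and 6.86-fold for Srxn1, in the authors' deposited table. In the Cpt1a knockout the calls against that group were few and of at most 2.05-fold, for Gpx4, in the authors' deposited table. A gene was called where the authors' adjusted p was below 0.05. Against the reference group, 4 of the 34 genes were higher and 0 lower in the Cpt1a knockout in the authors' deposited table, where 6.81% of all tested genes were higher, 7.60% lower and 14.4% either. At an unadjusted p below 0.05 these counts were 7 and 3 in the same authors' deposited table, whose test is not named in any source here. The 4 were the peroxidases Gpx4 and Gpx1, sulfiredoxin (Srxn1) and biliverdin reductase B (Blvrb).

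Against the same reference group, 17 genes were higher and 3 lower in the Cpt2 group in the authors' deposited table, with 10.3% and 10.7% of all tested genes called in those directions and 21.0% in either. Set directly against the Cpt2 group, the Cpt1a knockout had 16 genes lower and 4 higher in the authors' deposited table, where 14.6% and 14.2% of all tested genes were called in those directions and 28.8% in either. The median log2 fold change of the 34 genes was 0.49 in the Cpt2 group, against −0.03 over all genes, in the authors' deposited table. For both knockouts against each other the median was −0.25, against 0.05 over all genes, in the authors' deposited table. The first of the 3 tables is cut at a p of 0.05 and holds 10 of the 34 genes. For the other genes the log2 fold change was taken as the sum of those in the other 2 tables, called a summed log2 fold change below. The median of these sums over the 34 genes was 0.17, against 0.01 over all genes. Both comparisons with the reference group share its samples, so their values are given side by side and not as independent evidence. Both comparisons that include the Cpt2 group likewise share its samples, with opposite sign. Higher calls in the Cpt2 group and lower calls of the Cpt1a knockout against it are therefore not independent evidence either.

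**Figure D1:**
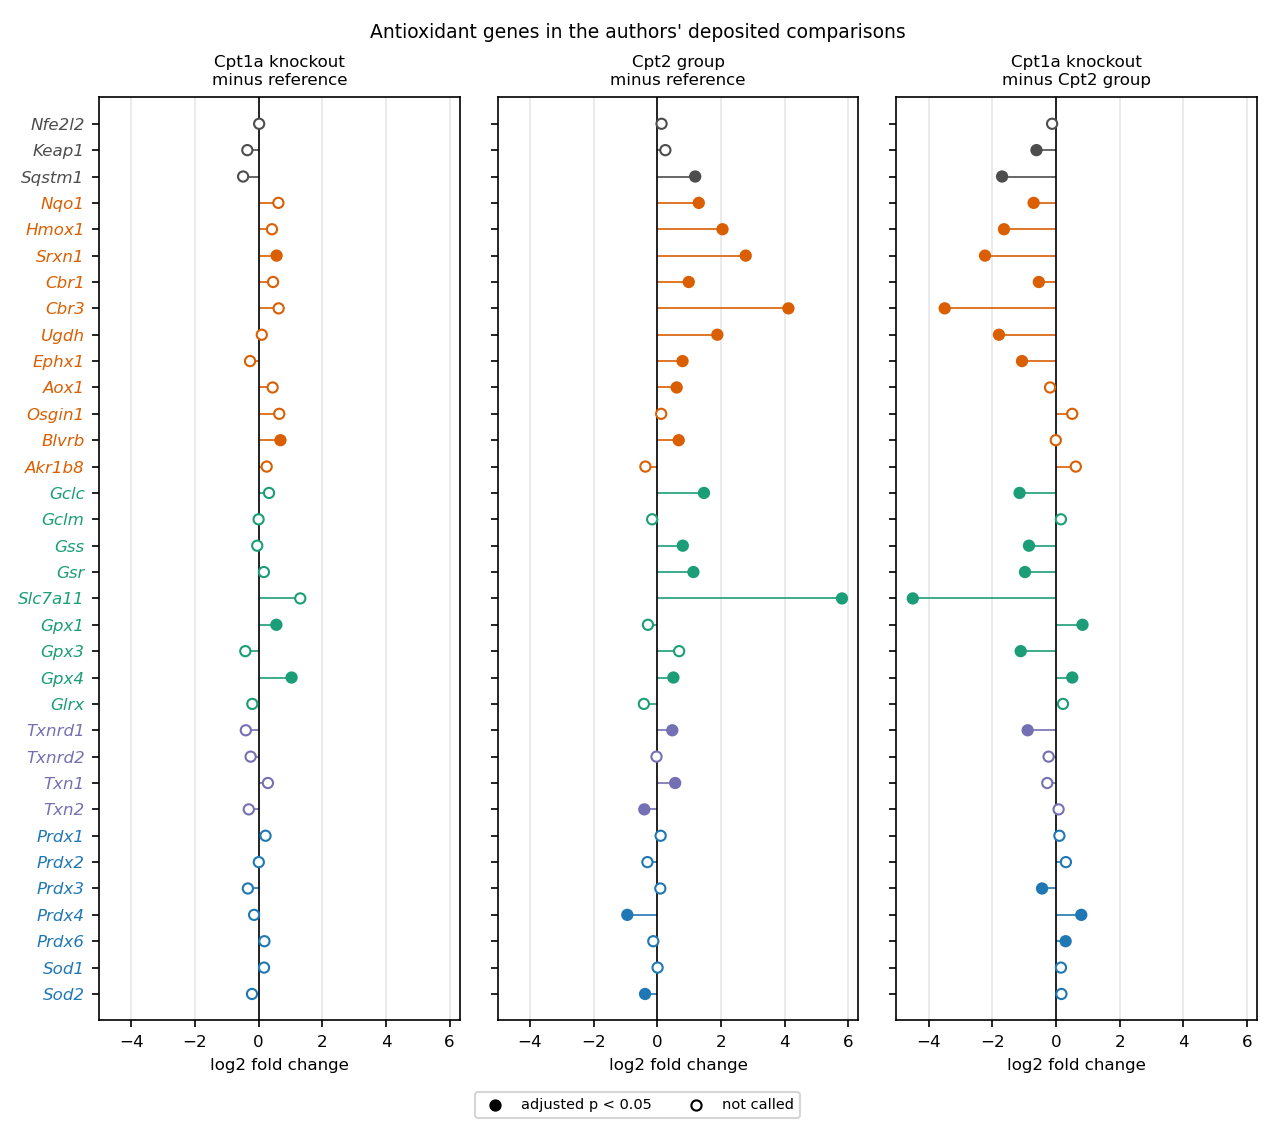
Log2 fold change of each of the 34 genes (rows, coloured by role) in the authors' 3 comparisons, filled where the adjusted p was below 0.05; in the left panel open points hold the sum of the other 2 tables where the gene was not listed. The middle panel has 17 filled points to the right of 0 and 3 to the left, the right panel 16 to the left and 4 to the right, and the left panel 4 to the right. The points of Slc7a11, with 1, 0, 1 and 0 counts in the Cpt1a livers, are no measure of size.

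Among the regulators, Sqstm1 was called in both comparisons with the Cpt2 group, Keap1 in the direct one, and Nfe2l2 in none. Nfe2l2 stood at 19.3, 15.5, 15.8 and 14.9 FPKM in livers 1 to 4 of the Cpt1a knockout. Its log2 fold change was 0.13 in the Cpt2 group against the reference group (adjusted p = 0.711) and −0.12 in the knockout against the Cpt2 group (adjusted p = 0.610) in the authors' deposited tables. NRF2 is controlled largely through its protein, which RNA counts do not measure.

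Keap1 was detected at 8.40, 7.61, 9.35 and 8.13 FPKM, a narrow range. It was lower in the Cpt1a knockout than in the Cpt2 group by a log2 fold change of −0.61 (adjusted p = 1.50e-04) in the authors' deposited table. Neither comparison with the reference group called Keap1, with 0.25 for the Cpt2 group (adjusted p = 0.462) in the authors' deposited table and a summed −0.36 for the Cpt1a knockout.

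Sqstm1, the receptor that can hold KEAP1 away from NRF2, was abundant, at 111, 101, 121 and 89.1 FPKM. Liver 3 was highest and liver 4 lowest. In the Cpt2 group it was 2.28-fold higher than in the reference group (log2 1.19, adjusted p = 9.63e-08) in the authors' deposited table. In the Cpt1a knockout it was 3.23-fold lower than in the Cpt2 group (log2 −1.69, adjusted p = 6.90e-28) in the authors' deposited table. The knockout and the reference group differed by −0.49 (adjusted p = 0.107) in the authors' deposited table, which was not called.

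NRF2 target enzymes held the most calls: 9 of 11 were higher in the Cpt2 group than in the reference group, 2 of 11 in the Cpt1a knockout, and 7 of 11 were lower in the Cpt1a knockout than in the Cpt2 livers, in the authors' deposited tables. Over all tested genes the shares in those directions were 10.3%, 6.81% and 14.6%. At an unadjusted p below 0.05, 5 of 11 were higher and 0 lower in the Cpt1a knockout against the reference group in the authors' deposited table. Their median summed log2 fold change in that comparison was 0.45, against 0.01 over all genes, with 10 above 0 and 1 below. Srxn1 (chr2:152105516-152111376, plus strand, GRCm38), the sulfiredoxin that repairs overoxidised peroxiredoxins, had the smallest adjusted p of the 34 genes in the Cpt2 group. Its levels in the Cpt1a livers were 32.4, 27.7, 33.5 and 23.7 FPKM, liver 4 being lowest. Srxn1 was 6.86-fold higher in the Cpt2 group than in the reference group (log2 2.78, adjusted p = 1.83e-84), in the authors' deposited table. Against the same reference group the Cpt1a knockout was 1.48-fold higher (log2 0.56, adjusted p = 0.00800) in the authors' deposited table. The direct comparison put Srxn1 4.68-fold lower in the Cpt1a knockout (log2 −2.23, adjusted p = 2.12e-44) in the authors' deposited table.

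Promoter sequences are printed for 5 genes to set motif matches beside these calls: Srxn1, Ugdh and Slc7a11, called higher in the Cpt2 group, and Gclm and Prdx1, which hold the motif and were called in no table. The sequences come from the RefSeq promoter table (GRCm38.p6). Each runs 5′ to 3′ on the strand of the gene and ends before both the RefSeq start and the start in the authors' gene table. Capitals mark TGACNNNGC, the core of the antioxidant response element, or the related form TGAGNNNGC, on either strand, so that GCNNNGTCA and GCNNNCTCA are the same motifs read on the other strand.
Srxn1, chr2:152105274-152105515, plus strand: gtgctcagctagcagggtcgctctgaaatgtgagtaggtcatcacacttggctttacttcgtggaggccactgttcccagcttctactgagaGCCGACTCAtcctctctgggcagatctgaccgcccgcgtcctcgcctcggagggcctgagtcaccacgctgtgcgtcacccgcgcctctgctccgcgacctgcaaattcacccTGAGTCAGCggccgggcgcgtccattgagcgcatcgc
Ugdh, chr5:65435950-65436092, minus strand: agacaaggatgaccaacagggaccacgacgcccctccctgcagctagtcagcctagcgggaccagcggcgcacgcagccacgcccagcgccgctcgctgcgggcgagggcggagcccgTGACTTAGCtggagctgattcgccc
Slc7a11, chr3:50443615-50443863, minus strand: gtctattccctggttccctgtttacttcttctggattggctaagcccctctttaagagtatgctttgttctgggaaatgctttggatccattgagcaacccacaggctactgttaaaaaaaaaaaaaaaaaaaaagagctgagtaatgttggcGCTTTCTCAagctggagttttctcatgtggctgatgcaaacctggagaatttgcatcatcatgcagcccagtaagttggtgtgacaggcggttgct
Gclm, chr3:122245307-122245556, plus strand: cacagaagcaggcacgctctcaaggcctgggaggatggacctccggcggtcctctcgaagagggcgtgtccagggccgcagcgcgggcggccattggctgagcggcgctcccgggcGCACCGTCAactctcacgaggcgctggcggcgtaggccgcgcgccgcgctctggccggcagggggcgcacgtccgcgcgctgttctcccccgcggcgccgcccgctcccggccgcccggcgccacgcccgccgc
Prdx1, chr4:116685349-116685543, plus strand: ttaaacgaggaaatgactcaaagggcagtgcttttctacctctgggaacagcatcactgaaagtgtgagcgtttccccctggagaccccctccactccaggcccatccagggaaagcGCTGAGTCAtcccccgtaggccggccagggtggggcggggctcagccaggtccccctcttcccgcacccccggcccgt
The Srxn1 stretch holds 2 matches to TGAGNNNGC, 158 and 45 bases before the RefSeq start. The capitals in Ugdh begin 132 bases before its start, those in Slc7a11 97, those in Gclm 134 and those in Prdx1 133. Another match of Ugdh, 94 bases before its start, lies outside the printed stretch. The 5 genes were picked because they hold a match, some called and some not, so they cannot show whether matches go with calls.

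Of the 34 genes, 30 were in the promoter table, which gives 250 bases before and 50 after each start. Gclc, Hmox1, Gsr and Prdx6 were not among them. TGACNNNGC was found on either strand for 7 of the 30 (23.3%), and for 14.0% of the 27025 symbols in the table. The 7 were Nfe2l2, Srxn1, Ugdh, Gclm, Txnrd1, Prdx1 and Sod1, the match of Srxn1 lying 28 bases after its start. TGAGNNNGC, searched after seeing the data, was found for 6 of the 30 (20.0%) and for 19.8% of symbols. Only letters were matched, and no binding was measured.

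Cbr3 (chr16:93683215-93690990, plus strand), a carbonyl reductase, had the largest log2 fold change among the target enzymes. It was scarce in the Cpt1a livers, at 1.06, 0.371, 0.402 and 0.862 FPKM from 20, 7, 8 and 17 counts, so that liver 1 and liver 4 were higher than the others. In the Cpt2 group Cbr3 was 17.4-fold higher than in the reference group (log2 4.12, adjusted p = 7.15e-30), in the authors' deposited table. The Cpt1a knockout was 11.2-fold lower than the Cpt2 group (log2 −3.49, adjusted p = 1.08e-25) in the authors' deposited table, and its summed log2 fold change against the reference group was 0.63, not listed.

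Its neighbour on chromosome 16, Cbr1, a more abundant carbonyl reductase, stood at 33.6, 33.5, 43.2 and 53.8 FPKM. Livers 3 and 4 were above livers 1 and 2. The log2 fold change of Cbr1 was 0.99 in the Cpt2 group (adjusted p = 6.32e-04) and −0.54 in the knockout against the Cpt2 group (adjusted p = 0.0104) in the authors' deposited tables. Its summed value for the Cpt1a knockout against the reference group was 0.45, not listed.

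Ugdh (chr5:65413221-65435949, minus strand) makes UDP-glucuronic acid, the donor for glucuronidation. The 4 livers were close, at 24.8, 20.6, 22.7 and 20.2 FPKM. Ugdh was 3.70-fold higher in the Cpt2 group than in the reference group (log2 1.89, adjusted p = 2.94e-16) in the authors' deposited table. It was 3.45-fold lower in the Cpt1a knockout than in the Cpt2 group (log2 −1.79, adjusted p = 3.44e-21) in the authors' deposited table, while the summed value against the reference group was 0.10.

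Hmox1, heme oxygenase, which opens the heme ring, stood at 12.4, 12.0, 15.2 and 14.3 FPKM. Livers 3 and 4 were slightly above the others. It was 4.14-fold higher in the Cpt2 group than in the reference group (log2 2.05, adjusted p = 0.00283) and 3.10-fold lower in the Cpt1a knockout than in the Cpt2 group (log2 −1.63, adjusted p = 1.14e-05) in the authors' deposited tables. For the Cpt1a knockout against the reference group Hmox1 was not listed, with a summed 0.42.

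Nqo1, the quinone reductase often used as a marker of NRF2 activity, was low, at 6.31, 6.08, 5.92 and 4.67 FPKM. Liver 4 was the lowest. The gene was 2.47-fold higher in the Cpt2 group than in the reference group (log2 1.30, adjusted p = 5.39e-05) and 1.62-fold lower in the Cpt1a knockout than in the Cpt2 group (log2 −0.70, adjusted p = 5.13e-04) in the authors' deposited tables. In the Cpt1a knockout against the reference group Nqo1 had a log2 fold change of 0.62 (p = 0.0383, adjusted p = 0.162) in the authors' deposited table, which was not called.

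Ephx1, the microsomal epoxide hydrolase, was the fourth most abundant of the 34 genes, at 176, 133, 159 and 174 FPKM. Liver 2 was lower than the other three. For Ephx1 the log2 fold change was 0.79 in the Cpt2 group (adjusted p = 4.57e-04) and −1.06 in the Cpt1a knockout against the Cpt2 group (adjusted p = 1.66e-14) in the authors' deposited tables. The summed value for the Cpt1a knockout against the reference group was −0.27, not listed.

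Aldehyde oxidase Aox1 stood at 12.5, 16.2, 11.1 and 18.9 FPKM. Livers 2 and 4 were above livers 1 and 3. Aox1 had a log2 fold change of 0.61 in the Cpt2 group (adjusted p = 0.0127), 0.44 in the Cpt1a knockout (adjusted p = 0.190), and −0.18 between the knockout and the Cpt2 group (adjusted p = 0.530) in the authors' deposited tables.

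Blvrb, which acts downstream of heme oxygenase, was called in both comparisons with the reference group. The livers held 29.8, 35.1, 50.7 and 51.2 FPKM, with livers 3 and 4 above livers 1 and 2. Its log2 fold change was 0.68 in the Cpt1a knockout (adjusted p = 0.0445) and 0.67 in the Cpt2 group (adjusted p = 0.00885) in the authors' deposited tables. The direct comparison gave −0.0032 (adjusted p = 0.999) in the authors' deposited table.

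Red blood cells are rich in Blvrb as well. Of 5 tested red blood cell markers, 4 were lower in the Cpt2 group than in the reference group and 4 were higher in the Cpt1a knockout than in the Cpt2 livers in the authors' deposited tables. Over all tested genes, 10.7% and 14.2% were called in those directions. Against the reference group, 0 of 8 markers were called in the Cpt1a knockout in the authors' deposited table, and 0 passed an unadjusted p of 0.05. The 8 markers summed to 175 to 521 FPKM over the 4 livers. Their part in the values of Blvrb was not tested.

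Osgin1 and Akr1b8, the remaining target enzymes, were called in no comparison. Osgin1, a growth inhibitor induced by oxidative stress, stood at 22.9, 19.7, 34.2 and 39.5 FPKM, so livers 3 and 4 were well above the others. Its log2 fold change in the Cpt1a knockout against the reference group was 0.65 (p = 0.0233, adjusted p = 0.117) in the authors' deposited table. Akr1b8, an aldo-keto reductase, ranged from 1.60 to 2.67 FPKM, and its values were −0.37 in the Cpt2 group (adjusted p = 0.628) and 0.63 between the knockouts (adjusted p = 0.196) in the authors' deposited tables.

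Among the glutathione genes, the synthesis and recycling enzymes other than Gclm were higher in the Cpt2 group, and the peroxidases Gpx1 and Gpx4 were higher in the Cpt1a knockout than in either other group. In all, 5 of 9 were higher in the Cpt2 group and 2 of 9 in the Cpt1a knockout against the reference group, and 5 of 9 were lower and 2 of 9 higher in the Cpt1a knockout against the Cpt2 livers, in the authors' deposited tables. Among all tested genes the matching shares were 10.3%, 6.81%, 14.6% and 14.2%.

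Gclc, the catalytic subunit of glutamate-cysteine ligase, which makes the first and limiting step of glutathione synthesis, stood at 73.3, 58.7, 38.4 and 66.3 FPKM. Liver 3 was the lowest, and Gclc had the third largest spread of the 34 genes. In the Cpt2 group it was 2.76-fold higher than in the reference group (log2 1.47, adjusted p = 1.33e-08), and in the Cpt1a knockout 2.21-fold lower than in the Cpt2 group (log2 −1.14, adjusted p = 6.65e-06), in the authors' deposited tables. The summed value for the Cpt1a knockout against the reference group was 0.33.

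Gclm, the modifier subunit of the same ligase, was called in no table. The livers held 46.0, 39.3, 38.3 and 32.6 FPKM. Its log2 fold change was −0.16 in the Cpt2 group (adjusted p = 0.666) and 0.16 between the knockouts (adjusted p = 0.479) in the authors' deposited tables, and −0.0022 as the sum for the Cpt1a knockout against the reference group. The difference between both subunits was not tested.

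Gss, glutathione synthetase, which makes the second step, stood at 9.27, 8.06, 9.65 and 8.24 FPKM, a narrow range. It was 1.74-fold higher in the Cpt2 group than in the reference group (log2 0.80, adjusted p = 1.60e-06) and 1.80-fold lower in the Cpt1a knockout than in the Cpt2 group (log2 −0.85, adjusted p = 2.45e-08) in the authors' deposited tables. The gene overlaps Acss2 on the opposite strand over 22544 bases, and no source here says whether counting used strand, so part of its reads may belong to Acss2.

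Gsr, glutathione reductase, returns oxidised glutathione to its thiol form with NADPH. It stood at 41.2, 32.5, 37.7 and 33.6 FPKM in the Cpt1a livers, with livers 1 and 3 above the others. The gene was 2.20-fold higher in the Cpt2 group than in the reference group (log2 1.14, adjusted p = 1.68e-13) and 1.96-fold lower in the Cpt1a knockout than in the Cpt2 group (log2 −0.97, adjusted p = 3.11e-13) in the authors' deposited tables.

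Slc7a11, the cystine importer that supplies cysteine for glutathione, was at the limit of detection. The Cpt1a livers had 1, 0, 1 and 0 counts. It was called higher in the Cpt2 group than in the reference group (adjusted p = 3.88e-04) and lower in the Cpt1a knockout than in the Cpt2 group (adjusted p = 0.00463) in the authors' deposited tables. With so few reads its log2 fold changes measure no size.

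Gpx1, the cytosolic glutathione peroxidase, was the most abundant of the 34 genes, at 1900, 2280, 1990 and 1720 FPKM. Liver 2 was highest. In the Cpt1a knockout it was 1.47-fold higher than in the reference group (log2 0.56, adjusted p = 0.0492) and 1.79-fold higher than in the Cpt2 group (log2 0.84, adjusted p = 4.96e-07) in the authors' deposited tables. The Cpt2 group differed from the reference group by −0.29 (adjusted p = 0.370) in the authors' deposited table.

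Gpx4 (chr10:80047166-80056439, plus strand), which reduces lipid peroxides in membranes and guards against ferroptosis, had the largest called change of the 34 genes in the Cpt1a knockout against the reference group. It stood at 157, 200, 245 and 261 FPKM, with livers 3 and 4 above livers 1 and 2. The knockout was 2.05-fold higher than the reference group (log2 1.03, adjusted p = 9.33e-06), in the authors' deposited table. The Cpt2 group was 1.42-fold higher than the reference group (log2 0.51, adjusted p = 0.0292) in the authors' deposited table. Between the knockouts Gpx4 was 1.43-fold higher in the Cpt1a knockout (log2 0.51, adjusted p = 0.0332) in the authors' deposited table.

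Reads of Gpx4 can also match its copy Gpx4-ps2, a transcribed pseudogene with 99.7% identity over 733 bases and 89.9 FPKM on average in the Cpt1a livers. For this copy the same 3 comparisons gave 1.18, 0.61 and 0.55 on the log2 scale (adjusted p = 1.57e-10, 0.0138 and 0.00965) in the authors' deposited tables. Reads of both cannot be cleanly told apart, so the values of Gpx4 are uncertain to that extent.

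Gpx3, the secreted peroxidase, was low, at 3.49, 5.39, 4.28 and 2.95 FPKM, liver 2 being highest. It was 2.15-fold lower in the Cpt1a knockout than in the Cpt2 group (log2 −1.11, adjusted p = 5.84e-05) in the authors' deposited table. The Cpt2 group stood at 0.69 against the reference group (adjusted p = 0.101) in the authors' deposited table, which was not called. Glrx, glutaredoxin, held 15.9 to 20.1 FPKM and was called in no table.

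Of the 4 thioredoxin genes, 2 were higher and 1 lower in the Cpt2 group against the reference group, 0 were called in the Cpt1a knockout against the reference group, and 1 was lower in the Cpt1a knockout than in the Cpt2 livers, in the authors' deposited tables. In that order, calls in either direction were 75%, 0% and 25% of these genes, beside 21.0%, 14.4% and 28.8% of all tested genes. At an unadjusted p below 0.05, 2 of the 4 were lower in the Cpt1a knockout than in the reference group in the authors' deposited table.

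Txnrd1, the cytosolic thioredoxin reductase and a known NRF2 target, stood at 26.2, 20.5, 20.2 and 19.4 FPKM, liver 1 standing apart above the rest. Its log2 fold change was 0.47 in the Cpt2 group (adjusted p = 8.36e-04) and −0.89 in the Cpt1a knockout against the Cpt2 group (adjusted p = 3.27e-09) in the authors' deposited tables. In the Cpt1a knockout against the reference group the value was −0.40 (adjusted p = 0.0634) in the authors' deposited table, just outside the threshold.

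Txn1, the cytosolic thioredoxin, was among the abundant genes, at 88.9, 92.9, 148 and 127 FPKM. Livers 3 and 4 were above livers 1 and 2. The Cpt2 group was 1.48-fold higher than the reference group (log2 0.56, adjusted p = 0.0457) in the authors' deposited table. The summed value for the Cpt1a knockout was 0.29, and the direct comparison gave −0.27 (adjusted p = 0.354) in the authors' deposited table.

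Txn2, mitochondrial thioredoxin, stood at 29.9, 33.7, 36.9 and 32.9 FPKM. It was lower in the Cpt2 group than in the reference group by −0.41 (adjusted p = 0.00529), and the Cpt1a knockout had −0.31 (adjusted p = 0.124), in the authors' deposited tables. Its reductase Txnrd2 ranged from 5.33 to 6.39 FPKM and was not called, with −0.02 in the Cpt2 group (adjusted p = 0.960) in the authors' deposited table.

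Of the peroxiredoxins and superoxide dismutases, 0 of 7 were called in the Cpt1a knockout against the reference group, 2 of 7 lower in the Cpt2 group, and 2 of 7 higher and 1 lower in the Cpt1a knockout against the Cpt2 livers in the authors' deposited tables. In that order, calls in either direction were 0%, 28.6% and 42.9% of these genes, beside 14.4%, 21.0% and 28.8% of all tested genes. With only 7 genes, a difference between these shares was not tested. None of the 7 passed an unadjusted p of 0.05 in the Cpt1a knockout against the reference group in the authors' deposited table.

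Prdx4, the peroxiredoxin of the endoplasmic reticulum, stood at 20.6, 19.1, 26.0 and 24.3 FPKM, livers 3 and 4 being higher. It was 1.92-fold lower in the Cpt2 group than in the reference group (log2 −0.94, adjusted p = 0.00138) and 1.74-fold higher in the Cpt1a knockout than in the Cpt2 group (log2 0.80, adjusted p = 6.94e-04) in the authors' deposited tables. The summed value for the Cpt1a knockout against the reference group was −0.14.

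Sod2, the mitochondrial manganese superoxide dismutase, held 17.4, 17.8, 20.0 and 17.0 FPKM, a range of 1.18-fold. It was lower in the Cpt2 group than in the reference group by −0.38 (adjusted p = 0.0218) in the authors' deposited table. Prdx3, the mitochondrial peroxiredoxin, stood at 65.5, 62.9, 67.6 and 56.6 FPKM and was lower in the Cpt1a knockout than in the Cpt2 group by −0.43 (adjusted p = 0.0115) in the authors' deposited table. Prdx6, which also acts on phospholipid peroxides, stood at 105, 96.2, 114 and 91.6 FPKM and was higher in that comparison by 0.31 (adjusted p = 0.0424) in the authors' deposited table.

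Prdx1, Prdx2 and Sod1 were called in no table. Prdx1, the second most abundant gene, had the smallest spread of the 32 genes with a mean of at least 1 FPKM, at 285, 271, 296 and 266 FPKM. A processed pseudogene, Gm21399, shares 98.3% of 597 bases with Prdx1 and averaged 21.3 FPKM. Prdx2, abundant in red blood cells, ranged from 30.4 to 34.4 FPKM, and its log2 fold change in the Cpt2 group was −0.31 (adjusted p = 0.179) in the authors' deposited table.

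Sod1, the copper-zinc superoxide dismutase of the cytosol, had the largest spread of the 34 genes. It stood at 74.5, 114, 191 and 213 FPKM, so that liver 4 was 2.87-fold above liver 1. Between groups it was called in no table, with 0.01 in the Cpt2 group (adjusted p = 0.982) and 0.16 between the knockouts (adjusted p = 0.733) in the authors' deposited tables. Its pseudogene Gm8566, with 98.0% identity over 298 bases, stood at 8.88, 20.9, 51.4 and 61.0 FPKM, with the livers in the same order. Gm8566 was called higher in the Cpt2 group than in the reference group (log2 0.67, adjusted p = 0.0397) in the authors' deposited table. Between the knockouts it was not called, at −0.24 (adjusted p = 0.819) in the authors' deposited table. Reads of Sod1 and Gm8566 cannot be cleanly told apart, so the values and spread of Sod1 are uncertain to that extent.

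Levels in the Cpt1a livers, given per gene length, fell into 5 classes: 1 gene had a mean of at least 1000 FPKM, 7 had 100 to 1000, 18 had 10 to 100, 6 had 1 to 10 and 2 were below 1. The median was 29.2 FPKM. The order was led by Gpx1 (1975 ± 235 FPKM, SD, n = 4), Prdx1 (280 ± 13.4), Gpx4 (216 ± 47.3), Ephx1 (160 ± 19.9) and Sod1 (148 ± 65.2). Gpx4, Ephx1 and Sod1 overlapped in their ranges, so their order does not exceed their spread. Lowest were Akr1b8, Cbr3 and Slc7a11.

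**Figure D2:**
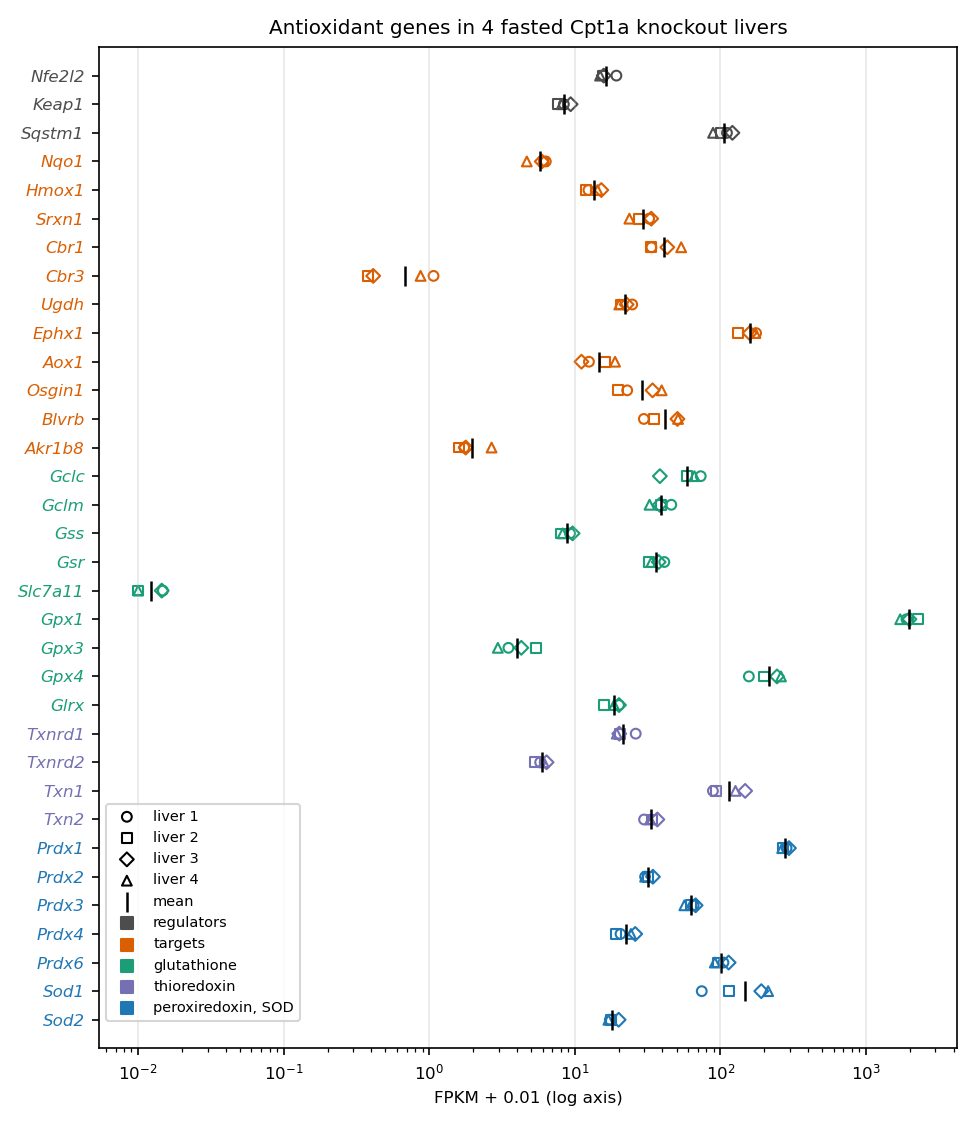
FPKM (log axis, with 0.01 added for display) of each of the 34 genes in the 4 Cpt1a knockout livers, coloured by role, with the mean as a vertical bar. Gpx1 sits at about 1975 FPKM, Slc7a11 at the far left, and the widest relative ranges among genes above 0 in each liver are those of Sod1 (74.5 to 213), Cbr3 (0.371 to 1.06) and Osgin1 (19.7 to 39.5).

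Spread between the livers was close to that of other genes. Over the 33 genes that averaged 10 counts or more, the median SD of log2(FPKM + 1) was 0.19, against 0.18 over 13794 genes chosen by the same minimum. The largest values at a mean of at least 1 FPKM were those of Sod1 (0.70), Osgin1 (0.46) and Gclc (0.40), and 17 genes were above the median of all genes. Liver 3 held the highest value for 15 of the 34 genes and liver 1 for 10, while livers 2 and 4 each held the lowest for 13. The genes did not share one order of the livers: Sod1, Osgin1, Blvrb, Gpx4 and Cbr1 were highest in liver 4, and Gclc, Gclm, Gsr, Ugdh and Txnrd1 in liver 1. With 4 livers no correlation was computed.

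**Figure D3:**
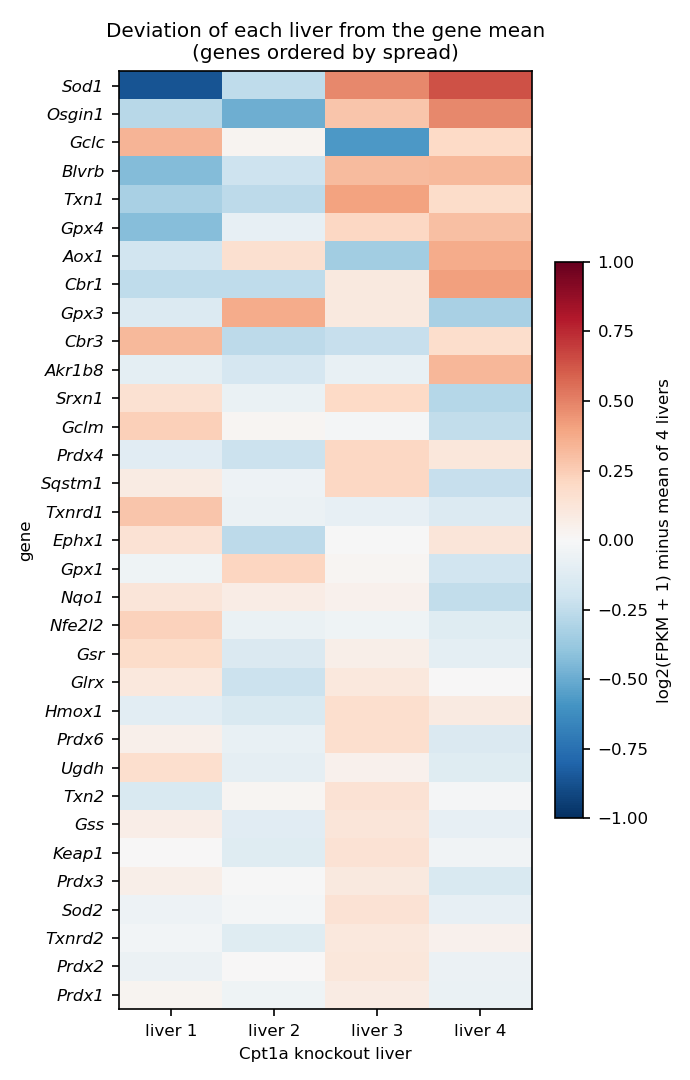
Difference of each liver (columns) from the mean of log2(FPKM + 1) of the gene (rows, ordered by spread) over the 4 Cpt1a livers. Sod1, with an SD of 0.70, and Osgin1, with 0.46, are below their means in livers 1 and 2 and above them in livers 3 and 4, and Gclc, with 0.40, is below its mean in liver 3.

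Other genes of the NRF2 pathway were taken from lists that also hold genes outside the 34. Of 9 partners of NRF2, 1 of 8 tested was higher in the Cpt2 group against the reference group, and 4 of 9 were lower and 1 higher between the knockouts, in the authors' deposited tables. Calls in either direction were 12.5% of the partners in the Cpt2 group, against 21.0% of all tested genes. Between the knockouts they were 55.6%, against 28.8%. The small MAF gene Mafk, whose protein pairs with NRF2, had 1.15 in the Cpt2 group (adjusted p = 6.51e-08) and −1.03 between the knockouts (adjusted p = 1.20e-09) in the authors' deposited tables. Maff fell by 1.57 (adjusted p = 2.94e-07) and Nfe2l1, a relative of NRF2, by 0.74 (adjusted p = 5.41e-07) in the knockout against the Cpt2 group in the authors' deposited table. Not called were Nfe2l1 at 0.47 (adjusted p = 0.101) and the NRF2 competitor Bach2 at −0.54 (adjusted p = 0.215) in the Cpt2 group, and Cul3, the ubiquitin ligase scaffold bound by KEAP1, at −0.46 (adjusted p = 0.0941) in the Cpt1a knockout, in the authors' deposited tables.

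Of 18 further NRF2 targets, 10 of 17 tested were higher and 3 lower in the Cpt2 group, 4 of 18 were higher and 0 lower in the Cpt1a knockout (2 lower at an unadjusted p below 0.05), and 7 of 17 were lower and 1 higher between the knockouts, in the authors' deposited tables. Their median log2 fold change was 0.56 in the Cpt2 group in the authors' deposited table. Calls in either direction were 76.5% of these targets in the Cpt2 group, 22.2% in the Cpt1a knockout and 47.1% between the knockouts. Over all tested genes the shares were 21.0%, 14.4% and 28.8%. Pgd and Tkt, enzymes of the pentose phosphate pathway that supplies NADPH, had 2.05 (adjusted p = 2.10e-41) and 1.17 (adjusted p = 1.88e-11) in the Cpt2 group in the authors' deposited table. Slc48a1, a heme transporter, had 1.32 in the Cpt2 group (adjusted p = 5.23e-15) and 0.51 in the Cpt1a knockout (adjusted p = 0.0212) in the authors' deposited tables. Against Cpt2 livers, Pgd in the Cpt1a knockout stood at −1.91 (adjusted p = 1.92e-43), Tkt at −1.32 (adjusted p = 9.87e-13) and Slc48a1 at −0.83 (adjusted p = 1.10e-11) in the authors' deposited table. The ferritin genes Ftl1 and Fth1 had 0.82 (adjusted p = 0.00174) and 0.70 (adjusted p = 0.00330) in the Cpt1a knockout in the authors' deposited table.

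Of 20 other thiol and peroxide enzymes, 4 were higher and 0 lower in the Cpt1a knockout against the reference group (1 lower at an unadjusted p below 0.05) in the authors' deposited table. They included Selenop, the plasma selenium carrier, at 0.60 (adjusted p = 0.00161), Msrb3 at 0.58 (adjusted p = 0.0130) and Glrx5 at 0.58 (adjusted p = 0.0144) in the authors' deposited table. In the Cpt2 group 4 of 19 tested were higher and 0 lower (2 lower at an unadjusted p below 0.05) in the authors' deposited table. Gpx7 had 2.16 there (adjusted p = 7.44e-04), Msrb3 0.50 (adjusted p = 0.0143) and Txnl1, a thioredoxin-like protein, 0.43 (adjusted p = 0.0221) in the authors' deposited table. Against Cpt2 livers, 3 of 19 were higher and 2 lower in the Cpt1a knockout, among them Selenop at 0.59 (adjusted p = 1.09e-04), the methionine sulfoxide reductase Msrb1 at 0.56 (adjusted p = 0.0118) and the sestrin Sesn2 at −0.57 (adjusted p = 0.0245), in the authors' deposited table. Calls in either direction made up 21.1% of this list in the Cpt2 group and 26.3% between the knockouts. These shares were close to the 21.0% and 28.8% of all tested genes. For the Cpt1a knockout against the reference group they were 20% of the list and 14.4% of all tested genes.

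**Figure D4:**
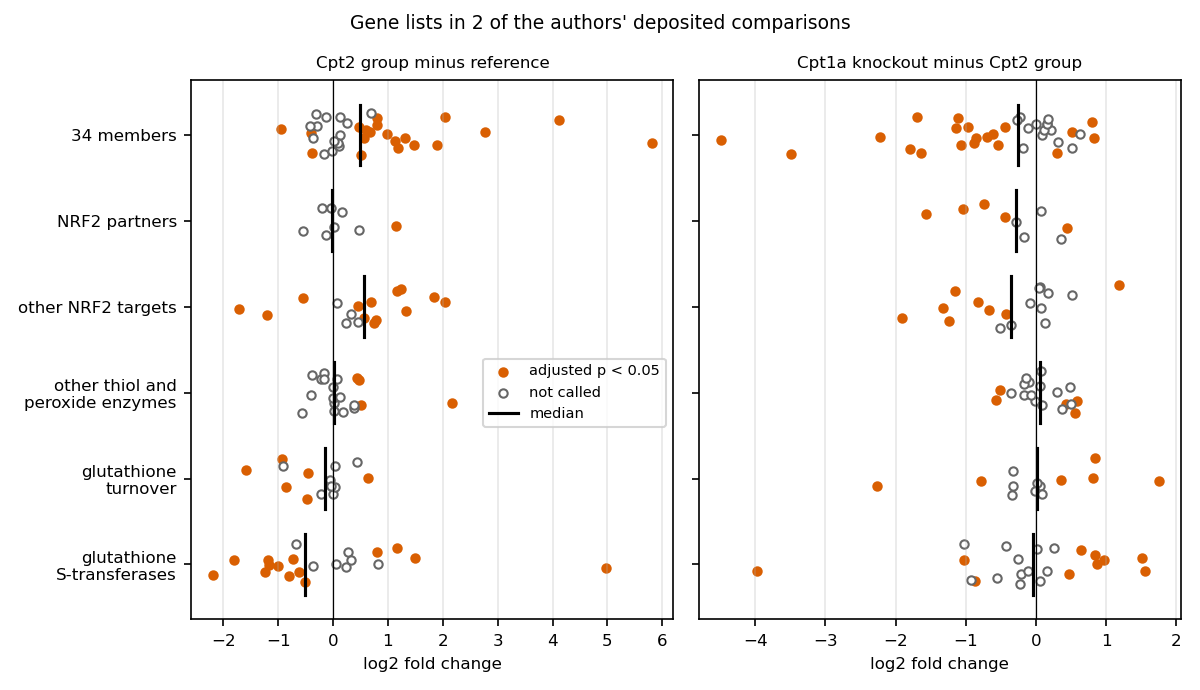
Log2 fold changes of the 34 genes and 5 lists of related genes (rows; genes with an adjusted p, filled where it was below 0.05, black bar at the median) for the Cpt2 group against the reference group (left) and for both knockouts against each other (right). The median of the 34 genes lies at 0.49 on the left and −0.25 on the right, and that of the glutathione S-transferases at −0.52 and −0.05.

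Markers of other liver cells moved with some of these comparisons. Over all tested genes, calls in either direction were 14.4% in the Cpt1a knockout and 21.0% in the Cpt2 group against the reference group. Between the knockouts they were 28.8%. Of 12 Kupffer cell and macrophage markers, 10 were higher and 1 lower in the Cpt1a knockout than in the Cpt2 group, and 1 was higher and 3 lower in the Cpt2 group than in the reference group, in the authors' deposited tables. In the 4 Cpt1a livers the 12 markers summed to 240 to 261 FPKM, and none was at 0. Hepatocyte markers were lower in 5 of 8 in each knockout against the reference group, in the authors' deposited tables. Periportal markers were lower in 10 of 10 in the Cpt1a knockout and 9 of 10 in the Cpt2 livers, and pericentral markers in 5 of 10 (2 higher) and 9 of 10 (1 higher), in the authors' deposited tables. Lymphocyte markers were higher in 4 of 10 in the Cpt1a knockout against the reference group and in 4 of 10 against the Cpt2 livers, and endothelial markers in 0 of 8 (2 at an unadjusted p below 0.05) and 3 of 8, in the authors' deposited tables. The lymphocyte markers were near the floor in the Cpt1a livers. Only 1 of the 10 averaged at least 1 FPKM, and the 10 summed to 4.18 to 4.97 FPKM. Stellate cell markers were higher in 2 of 8 in the Cpt1a knockout against the reference group in the authors' deposited table. Their part in the values of the antioxidant genes was not tested.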

How the data were processed

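RNA-seq of 4 livers was analysed. Per the submitters' processing notes, HISAT2 and the build GRCm38 (mm10) were used. How reads were counted, on which annotation and with or without strand is not given in the sources used here. Deposited by the authors were raw read counts per gene and, separately, FPKM. The authors' 3 deposited comparison tables give each gene a log2 fold change and its p-value, raw and adjusted. Their group means and 8 columns of the count table that belong to samples outside the series were not used.

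The series holds 1 labelled group, so no test between groups was fitted, and genes were called from the authors' adjusted p below 0.05. An adjusted p of exactly 1 was read as no adjusted value. The partial table lists 4461 genes, and its adjusted values were read as covering 16862 genes. For its listed genes the sum of the other 2 tables differed by a median of 0.012. Spread was the SD of log2(FPKM + 1). Pairs of livers differed beyond counting noise (chi-square 20.6 to 67.8 per gene). Alternatives used edgeR 4.0.16 and DESeq2 1.42.0 scaling factors (R 4.3.3), thresholds and filters. Python 3.11.15 with pandas 2.3.3 was used. Scripts were tested on simulated data.

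The members and lists were chosen with earlier results of these data known. Values are given for each gene called in a table, the 5 most abundant and the 3 most variable, and for the 3 genes with the smallest adjusted p per table of each other list. Coordinates of all 34 genes equal those of GENCODE M21. Tf, and Nnt with 2 rows, were not analysed here.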

Additional observations from a re-analysis of the deposited data

Results flagged for a closer look

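Gaps between the livers stood out for 2 of the 34 genes, where chance alone flags about 1 gene in 20. Akr1b8 had 2.67 FPKM in liver 4, against 1.60 to 1.77 in the other livers. Txnrd1 had 26.2 FPKM in liver 1, against 19.4 to 20.5 in the others.

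The authors' direct comparison tests the difference between the Cpt1a knockout and the Cpt2 group. It called 20 of the 34 genes (58.8%), beside 28.8% of all tested genes. In the authors' deposited table the log2 fold changes of target and regulator genes lower in the Cpt1a knockout were −0.61 for Keap1, −1.69 for Sqstm1, −0.70 for Nqo1, −1.63 for Hmox1, −2.23 for Srxn1, −0.54 for Cbr1, −3.49 for Cbr3, −1.79 for Ugdh and −1.06 for Ephx1. Glutathione, thioredoxin and peroxiredoxin genes lower in the authors' deposited table were Gclc at −1.14, Gss at −0.85, Gsr at −0.97, Slc7a11 at −4.50, Gpx3 at −1.11, Txnrd1 at −0.89 and Prdx3 at −0.43. The value of Slc7a11 rests on 2 reads in the Cpt1a livers and is no measure of size. Higher in the Cpt1a knockout in the authors' deposited table were Gpx1 at 0.84, Gpx4 at 0.51, Prdx4 at 0.80 and Prdx6 at 0.31.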

How the results depend on the processing

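Of 53 alternative values 45 stayed within the limits set for them and 8 moved. These limits were wide. Counts of calls could change by up to 1.5-fold, and the median spread by less than the SD of spread across the genes. The minimum mean of 1 FPKM could remove only Cbr3 and Slc7a11. Staying within the limits is therefore weak evidence of stability. The 45 include the summed log2 fold changes of the 10 genes listed in the partial table. Those sums nearly equal the listed values (largest difference 0.015), so they could not have reversed and are no test of direction. With an adjusted p below 0.01 the higher calls of the Cpt1a knockout went from 4 to 2 against the reference group and from 4 to 2 against the Cpt2 group, and with a minimum of 1.5-fold both were 2. At an adjusted p below 0.1, 1 gene (Txnrd1) was lower in the Cpt1a knockout than in the reference group, in place of 0. With the 1.5-fold minimum the lower calls of the Cpt2 group went from 3 to 1. The median level was 76.1 when recomputed as TPM, another unit, in place of 29.2 FPKM, and the longer motif with a closing A was found for 1 gene in place of 7. That was 3.33% of the genes in the promoter table, beside 3.45% of all symbols, so the longer form was no more frequent among the genes. Leaving out each liver in turn gave a median level of 27.7 to 30.8 FPKM and a median SD of 0.17 to 0.19. edgeR's biological coefficient of variation had a median of 0.186 over the 33 genes and 0.209 over all genes. No paired analysis was possible because the series holds 1 group of samples. The authors' calls were not refitted, since columns of samples outside the series were not used, so no library was left out of them. Depth limits Slc7a11, with 2 reads in all, and Cbr3, and in the other lists Gsta1 and Chac1.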

Other observations

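Glutathione S-transferases, which conjugate glutathione to electrophiles, were more often lower than higher in the comparisons with the reference group. Of 21 tested, 10 were lower and 4 higher in the Cpt2 group, where 10.7% and 10.3% of all genes were called, and of 22, 6 were lower and 2 higher in the Cpt1a knockout, against 7.60% and 6.81%, in the authors' deposited tables. Their median log2 fold change was −0.52 in the Cpt2 group in the authors' deposited table. Gstt3 was at −2.18 (adjusted p = 4.25e-20) and Gstk1 at −1.81 (adjusted p = 1.23e-11) in the Cpt2 group, while Gsta1 was at 4.97 (adjusted p = 2.94e-12) in the authors' deposited table. In the Cpt1a knockout Gstk1 was at −1.16 (adjusted p = 1.34e-06), Gstp1 at −1.12 (adjusted p = 1.93e-05) and Gstp2 at −1.69 (adjusted p = 6.86e-05) in the authors' deposited table. Between the knockouts Gsta1 was at −3.97 (adjusted p = 6.41e-13), Gstt3 at 1.56 (adjusted p = 2.28e-10) and Gstz1 at 0.87 (adjusted p = 2.91e-10) in the authors' deposited table. Gsta1 had 0, 3, 9 and 3 counts in the Cpt1a livers, so the size of its −3.97 is uncertain. Counts of the Cpt2 and reference groups were not used, so the depth behind its 4.97 is not known here. Gstp1 and Gstp2 are close copies, so their counts are uncertain.

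Of 14 genes of glutathione breakdown and of glutathione-dependent aldehyde removal, 5 were lower and 1 higher in the Cpt2 group, and 2 were lower and 0 higher in the Cpt1a knockout (0 higher also at an unadjusted p below 0.05), in the authors' deposited tables. Calls in either direction were 42.9% of the list in the Cpt2 group, against 21.0% of all tested genes. In the Cpt1a knockout they were 14.3%, close to the 14.4% of all tested genes. Hagh and Glo1, the glyoxalases that clear methylglyoxal, were at −0.86 (adjusted p = 1.09e-09) and −0.93 (adjusted p = 2.32e-05) in the Cpt2 group in the authors' deposited table, and Glo1 was at 0.84 (adjusted p = 1.78e-09) in the Cpt1a knockout against Cpt2 livers in the authors' deposited table. Chac2, which degrades glutathione, was at −1.58 (adjusted p = 4.70e-07) in the Cpt2 group and 1.75 (adjusted p = 1.73e-12) between the knockouts in the authors' deposited tables. Its relative Chac1 was at −1.83 (adjusted p = 0.0288) in the Cpt1a knockout against the reference group and −2.26 (adjusted p = 3.18e-07) in the direct comparison, in the authors' deposited tables. Chac1 had only 6, 6, 18 and 10 counts in the Cpt1a livers, so the sizes of both values are uncertain. Lap3, an aminopeptidase, was at −0.79 (adjusted p = 1.73e-04) in the Cpt1a knockout, and Adh5, the formaldehyde-clearing enzyme, at −0.37 (adjusted p = 0.0914), not called, in the authors' deposited table.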
